A study of Oreochromis niloticus with 5 samples.

Results

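Myosin-binding protein C (MyBP-C) was examined in fast muscle of Nile tilapia through 3 transcripts, rna22869 and rna22870 of mybpc2b, the gene of the fast form, and rna48913 of mybpc1, the gene of the slow form. They are 3 of the 80416 features, mostly transcripts, of the deposited count table, and they belong to 2 genes that together have 12 transcripts in the table. The members were chosen by their measured levels in these libraries: rna22869 stood at rank 30 of the mean normalized counts, and mybpc1 was picked after its values had been seen. The levels and their ratio are therefore given as a description, and no test was made on them.

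The samples were fast (white) muscle of 5 male full siblings, named M1 to M5, with 1 library per fish depleted of ribosomal RNA. No treatment, genotype or tissue was contrasted. All fish had an age of 5 months by the labels, which is shorter than the rearing time stated in the study's methods, and the muscle was dissected above the lateral line on the left side. The total counts per library ranged from 26750559 in M1 to 90337019 in M2, with a median of 36731226, where a fragment adds a count to each transcript it matched. Genes annotated as ribosomal RNA took 0.201% of the counts in M1 and between 0.00784% and 0.0164% in the other libraries. The study's library statistics also set M1 apart. A much smaller share of its reads aligned to the genome than in any other library. The share of its fragments assigned to features was also the smallest. Normalized counts are the deposited counts divided by the median-of-ratios size factor of each library, which was 0.607 in M1 and 2.20 in M2.

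MyBP-C is an accessory protein of the thick filament. It binds myosin and titin in the part of the sarcomere where the cross-bridges form, reaches towards actin with its amino-terminal end, and tunes how fast and how many myosin heads engage. In mammals separate genes encode a slow skeletal form (MYBPC1), a fast skeletal form (MYBPC2) and a cardiac form (MYBPC3), and MyBP-H is a shorter relative. In fish the slow fibres lie in a superficial layer along the flank, outside the bulk of fast muscle.

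In all 5 fish the fast form was far above the slow form, and M1 stood apart from the others in the slow form. The transcript rna22869 of mybpc2b had between 129027 and 242139 normalized counts, a spread of 1.88-fold. The transcript rna48913 of mybpc1 had 1126 normalized counts in M1 and between 3.99 and 13.3 in M2 to M5. The fast-to-slow ratio was 215 in M1 and between 17306 and 41812 in the other fish.

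The gene mybpc2b lies on linkage group 8 of the assembly O_niloticus_UMD_NMBU, on the plus strand. The transcript rna22869 runs from 18302540 to 18329808 with 30 exons and 3552 exonic bases, and rna22870 runs from 18302559 to the same end with 29 exons and 3509 bases. A further transcript of the gene, rna22868, starts at 18302519 and has 28 exons. The 3 isoforms share 3488 exonic bases, or 98.2% of rna22869. An exon of 24 bases, from 18310837 to 18310860, is found in rna22869 alone, and an exon of 21 bases, from 18309617 to 18309637, is found in rna22869 and rna22870 but not in rna22868. No other feature of the table overlaps the gene, and the next gene, LOC100699717, starts 171 bases beyond its end.

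Because a fragment was counted on every transcript it matched, the isoforms hold nearly the same fragments. The raw count of rna22869 exceeded that of rna22870 by 2 (M1), 2 (M2), 1 (M3), 7 (M4) and 0 (M5), which is 12 of 1050206 counts in all. That of rna22870 exceeded rna22868 by 6 counts over the 5 fish. The share of each isoform cannot be read from such counts, and rna22869 and rna22870 are 1 measurement of mybpc2b rather than 2.

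The gene mybpc1 lies on linkage group 17 from 14099434 to 14137099, on the minus strand. Its transcript rna48913 has 33 exons and 4582 exonic bases, and it is 1 of 9 transcripts of this gene. The 9 transcripts share 4369 bases, and all 9 had the same raw count in every fish, 684 (M1), 15 (M2), 6 (M3), 11 (M4) and 4 (M5). The counts thus do not separate its isoforms. No other feature overlaps mybpc1, and the nearest one lies 3651 bases away.

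**Figure D1:**
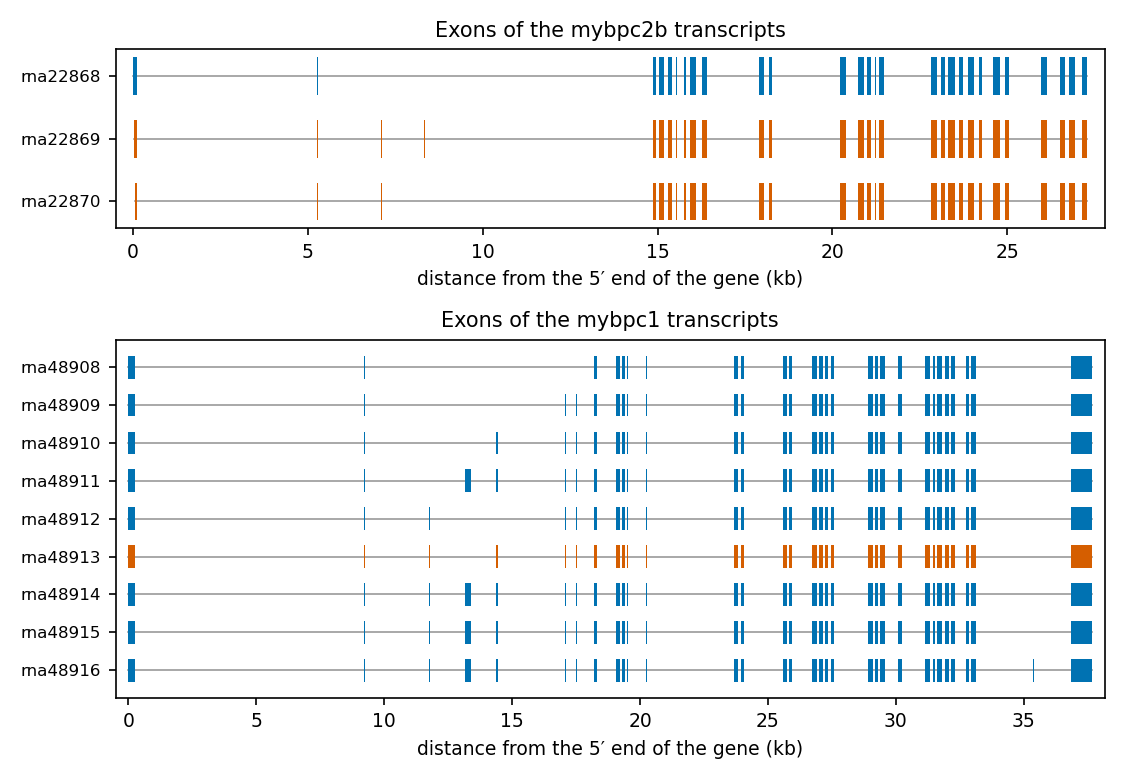
Exons (boxes) of the 3 transcripts of mybpc2b and the 9 transcripts of mybpc1, drawn to scale against the distance from the 5′ end of the gene in kilobases, with the 3 members in orange. Within each gene nearly all exonic bases are shared, so the isoforms share their fragments.

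The fast form was among the most abundant transcripts of the muscle in each fish. The normalized count of rna22869 was 242139 (M1), 193549 (M2), 129027 (M3), 230009 (M4) and 166703 (M5), with a mean of 192285 ± 46277 (SD, n = 5 fish). M1 and M4 were high and M3 was low. The 95% Poisson intervals of the counts were narrow, from 240903 to 243379 in M1 and from 128295 to 129762 in M3, and the intervals of neighbouring fish did not overlap. These intervals cover counting error only. The transcript ranked 29 in M1 and M4, 31 in M2, 32 in M5 and 61 in M3. Ranks were taken over all features, so isoforms that share fragments each hold a rank, and a rank is not a number of genes.

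The SD over the fish of log2(normalized count + 1) was 0.37 for rna22869. Among the 17 other genes with a mean within 2-fold of its own, 2 had a larger SD, and their median was 0.26. Without M3 the SD of rna22869 fell to 0.25, so this fish set much of the spread. The transcript rna22870 had values within 9 normalized counts of rna22869 in every fish and a mean of 192283 ± 46274 (SD, n = 5 fish).

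The slow form was low in all libraries but 1. The normalized count of rna48913 was 1126 in M1, with a 95% Poisson interval from 1043 to 1214. It was 6.81 in M2 (interval 3.81 to 11.2), 6.50 in M3 (2.39 to 14.1), 13.3 in M4 (6.63 to 23.8) and 3.99 in M5 (1.09 to 10.2). M1 was 84.7-fold above the next fish, M4, and its interval did not overlap any other. The intervals of M2 to M5 all overlapped one another, so an order among these 4 fish was not detectable at this depth. M1 held 684 of the 720 counts. The mean over the 5 fish, 231 ± 500 (SD, n = 5), rests on M1, and without it the mean was 7.65 ± 3.97 (SD, n = 4). In rank, rna48913 stood at 3129 in M1 and between 30409 and 36306 in the other fish. The SD of its log2(normalized count + 1) was 3.24, and 9 of the 4113 genes with a mean within 2-fold of its own had a larger one, but its mean came from M1 and the gene was chosen for these values.

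M1 had the lowest total count, and its slow count was the largest. With each deeper library thinned by random draws to as many counts as M1 has, rna48913 kept 5 (M2), 4 (M3), 11 (M4) and 3 (M5) counts, against 684 in M1.

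The fast-to-slow ratio, that is rna22869 over rna48913 within a library, does not depend on the size factor. It was 215 in M1, with a 95% exact binomial (Clopper-Pearson) interval from 199 to 232. In M2 it was 28428 (interval 17236 to 50793), in M3 19850 (9119 to 54090), in M4 17306 (9672 to 34668) and in M5 41812 (16330 to 153460). The ratio of M1 was the lowest, and its interval lay far below those of the other fish. Among M2 to M5 the highest ratio was 2.42 times the lowest, and all 4 intervals shared the range from 17236 to 34668.

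On the log2 scale the ratio was 7.75 (M1), 14.80 (M2), 14.28 (M3), 14.08 (M4) and 15.35 (M5). The mean was 13.25 ± 3.12 (SD, n = 5 fish). Without M1 it was 14.63 ± 0.57 (SD, n = 4). For these 4 fish, with 4 to 15 slow counts each, counting error alone gives an SD of 0.55, so a spread between them beyond counting error was not detectable at this depth. With the counts of M2 to M5 pooled, the ratio was 25087, or 117 times that of M1.

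**Figure D2:**
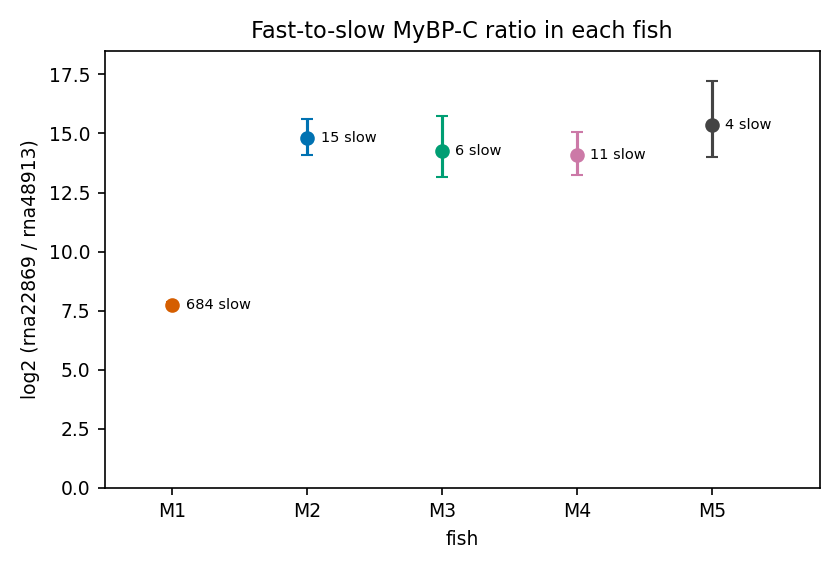
The log2 ratio of rna22869 to rna48913 in each fish (y axis, without a pseudocount), with 95% exact binomial intervals for counting error as bars and the number of slow counts beside each point. M1, with 684 slow counts, lies at 7.75, and M2 to M5, with 4 to 15, lie between 14.08 and 15.35 with overlapping intervals.

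The slow transcript is 1.29 times as long as the fast one. Per base of transcript the ratio was 277 (M1), 36672 (M2), 25605 (M3), 22324 (M4) and 53937 (M5). The order of the fish is the same on both scales.

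Other genes of the family differed widely in level. Compared per kilobase of transcript, rna22869 had a mean of 54134 normalized counts per kilobase. The MyBP-H gene mybphb, on linkage group 5, had a mean of 31328, which places the fast MyBP-C 1.73-fold above it in the means. By fish the gap was narrowest in M3, at 36325 against 31026, and widest in M4, at 64755 against 24565. The mean was 111 for mybpha, a second MyBP-H gene, and 50.5 for rna48913. It was 1.88 for mybpc2a, the paralog of the fast gene, and 0.418 for mybpc3, the gene of the cardiac form. The remaining genes sought, mybph and mybphl, were not matched by symbol.

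The normalized counts of mybphb were 74828 (M1), 75492 (M2), 65465 (M3), 51831 (M4) and 62896 (M5). M4, which was high in mybpc2b, was the lowest fish in mybphb. The most expressed transcript of mybpha, rna58778, had 405 (M1), 346 (M2), 43.3 (M3), 251 (M4) and 126 (M5). Like mybpc2b it was highest in M1 and lowest in M3, with a wider spread of 9.35-fold. The 2 transcripts of mybpc2a shared their counts, which were 9 (M1), 39 (M2), 0 (M3), 2 (M4) and 1 (M5). The cardiac gene mybpc3 had 0 counts in M1 and M3, 3 in M2, 5 in M4 and 1 in M5. A count of 0 allows up to 3 counts (one-sided 95% limit). In M1, where mybpc1 was high, mybpc3 had no count, but its 9 counts over the 5 fish are too few to order the fish.

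**Figure D3:**
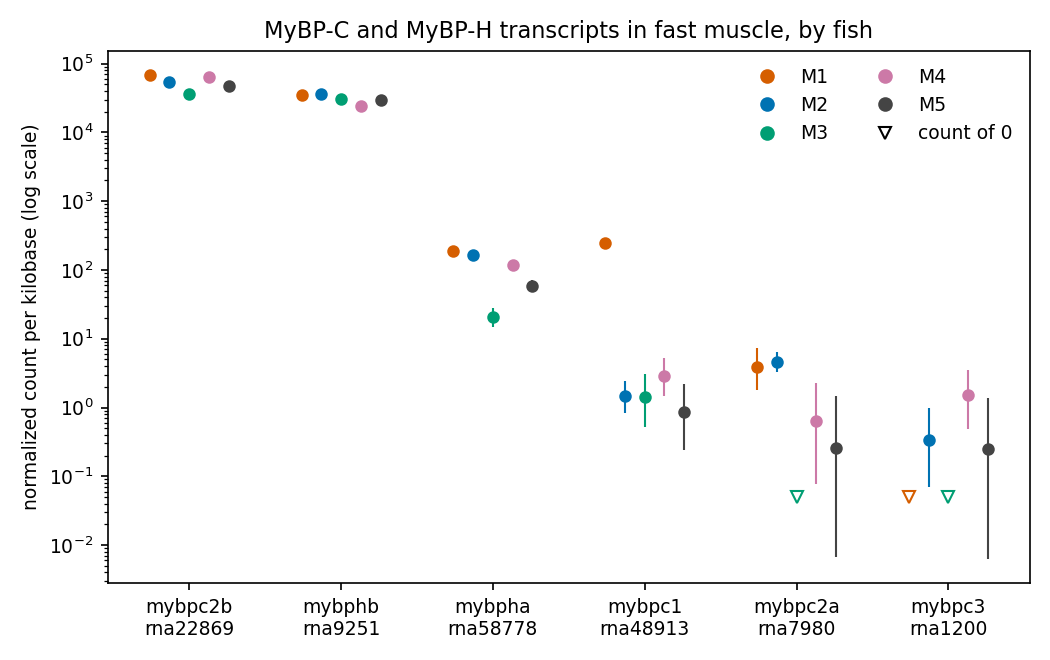
Normalized count per kilobase of transcript (y axis, log scale) of 1 transcript of each gene of the family in M1 to M5, with 95% Poisson intervals as bars and open triangles, placed at the foot of the axis, for a count of 0. The fast gene mybpc2b lies near mybphb, and in mybpc1 M1 lies at 246 and the other fish between 0.870 and 2.90.

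Members of other muscle protein families also come as a fast and a slow form. Of 10 such pairs sought by symbol, 5 were found, MyBP-C among them. The pairs are compared as log2 ratios of (normalized count + 1), and in this measure MyBP-C was at 7.75 in M1 and between 13.97 and 15.03 in the other fish. In none of the other 4 pairs was M1 the lowest fish, but 4 pairs are too few to set MyBP-C apart. The troponin C pair was not found, since no fast gene was matched. The gene listed for its slow form, tnnc1a, had 42.8 normalized counts in M1 and 1.36 to 7.25 in the others.

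The ratio of the fast troponin T gene LOC100707421 to tnnt1, the slow form, was 15.56 in M1 and ranged from 15.44 to 18.14 over the fish. It rests on 20 counts of tnnt1 in all. The ratio of mylpfa to myl2b, the fast and slow regulatory light chains, was 18.30 in M1 and ranged from 16.72 to 19.51, on 17 counts of myl2b. These slow genes were close to the limit of detection, with at most 6.59 normalized counts of tnnt1 and 4.54 of myl2b in any fish.

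The calcium pump pair, atp2a1l over atp2a2a, was at 12.16 in M1 and was lowest in M4, at 10.81. The normalized counts of atp2a2a, the pump of slow and cardiac muscle in mammals, were 122 (M1), 136 (M2), 128 (M3), 285 (M4) and 184 (M5). The pair of the calcium-storing calsequestrins, casq1a over casq2, was at 10.90 in M1 and was lowest in M5, at 9.35. The fish that stood apart in MyBP-C was within the range of the other fish in all 4 pairs except the calcium pump, where M1 and M2 were both at 12.16.

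**Figure D4:**
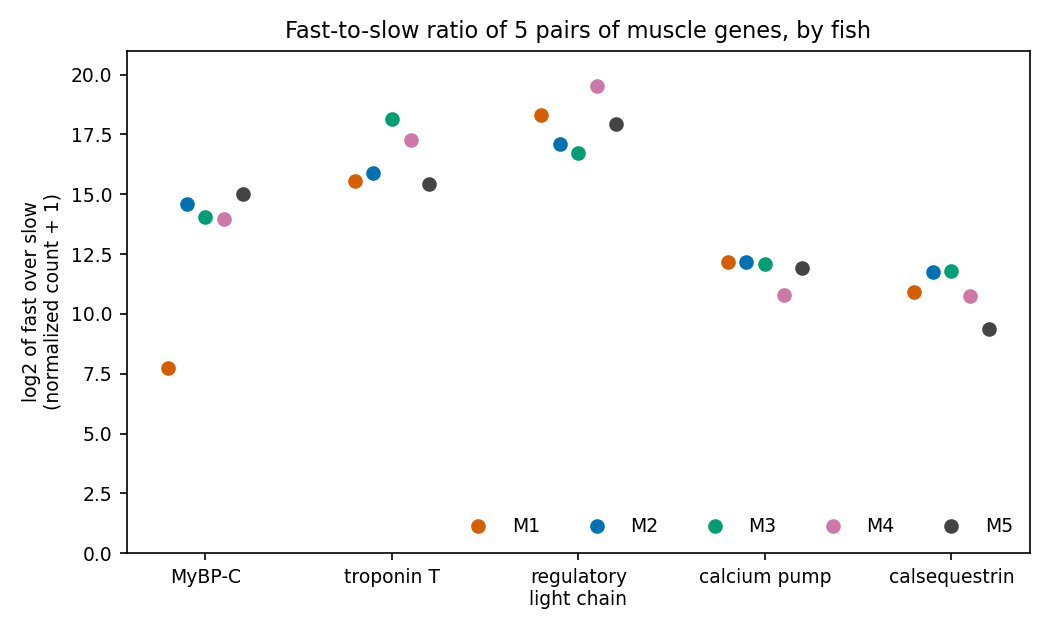
Log2 ratio of the fast to the slow gene, each as normalized count + 1 (y axis), for 5 pairs of muscle genes (x axis) in M1 to M5. M1 lies at 7.75 for MyBP-C, below the other fish, and in no other pair shown is it the lowest. Pairs with a gene not matched by symbol, such as troponin C, are not shown.

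The slow-fibre marker list was read in full. Of 13 slow-fibre symbols, 7 matched 10 genes and 9 of these had counts. No slow myosin heavy chain was matched by symbol, and tnni1b had no count in any fish. A gene named only by a locus number is missed by such a search. M1 was the highest fish in 3 of the 9. How often a gene of the whole table is highest or lowest in a given fish was not computed. Such counts, here and below, therefore describe the lists only. The troponin C gene of the list, tnnc1a, had 42.8 normalized counts in M1 and 1.36 to 7.25 in the others. Myoglobin, mb, the oxygen store of oxidative fibres, had 1958 in M1 and 262 to 733 in the others, and tnnt1 had 6.59 against at most 5.98. The sum over the 10 genes was 2246 in M1 and between 508 and 1190 in the other fish. Without mb the sum was 288 in M1 and between 223 and 457 in the others. Most of this remainder came from the pump genes atp2a2a and atp2a2b, with 122 and 70.8 in M1 and 285 and 132 in M4. It therefore says little about the other slow-fibre genes. The part of slow fibres, or of the lower alignment rate of this library, in the mybpc1 count of M1 was not tested, and in whole tissue more cells of a type cannot be told apart from more RNA per cell.

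Markers of other tissues did not share one pattern. Of the 7 heart genes matched, nppa, nppal, nppb and myl7 had no count in any fish and the sum of the list was 1.65 normalized counts in M1 and at most 8.46 in the others. The search took only the paralog letters a and b and a final l, so tnnt2d was not in this list. That gene had 2527 normalized counts in M1 and 32.5 to 255 in the others. Of the 7 fibroblast genes, 6 were highest in M1, and the sum was 48506 in M1 against 17562 to 28860. The count of 6 was not set beside the share of all genes highest in M1 and describes the list only. The sum of the 7 red blood cell genes was 179 in M1 and between 130 and 270 in the others, and that of the 3 adipocyte genes was 2056 in M1 and between 1235 and 2019. The part of these in the MyBP-C values was not tested.

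The level of mybpc1 in M1 was also set beside all genes, each by its most expressed transcript, whose mean over the fish was 100 normalized counts or more. Of 7209 such genes, 46 were at least 10-fold higher in M1 than in each other fish, or 0.638%, and mybpc1 was the third of them at 78.9-fold on (normalized count + 1). By annotation, 36 of the 46 were ribosomal RNA genes, 7 pseudogenes, 1 a long non-coding RNA and 2 protein-coding genes. Of the 7081 protein-coding genes, these 2 were 0.0282%, and mybpc1 was the higher one. No gene reached 10-fold in M2, M3, M4 or M5. Since mybpc1 passed the minimum mean only through M1 and was chosen for its values, this count describes the libraries and is no support for a difference.

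The other protein-coding gene past 10-fold was LOC100703747, with 986 normalized counts in M1 and 8.67 to 55.6 in the others. Next came tnnt2d, a troponin T gene, with 2527 (M1), 40.4 (M2), 32.5 (M3), 255 (M4) and 167 (M5). The regulatory light chain gene mylpfb had 1740 (M1), 49.0 (M2), 73.7 (M3), 291 (M4) and 136 (M5). M4 was second to M1 in mybpc1, tnnt2d, mylpfb, tnnc1a and mb. In mybpc1 its interval overlapped those of the lower fish, and tnnc1a rests on 41 counts over all fish. In LOC100694855, the next gene after tnnt2d by fold in M1, M5 was second, at 80.7 against 50.7 in M4. These genes were singled out after their values were seen. Of them, mylpfb is on the fast-fibre list, and tnnc1a and mb are on the slow-fibre list. The other slow-fibre genes with counts did not have M1 first and M4 second. M4 had 1.21 normalized counts of tnnt1 and 0 of myl2b, it was highest in atp2a2a and atp2a2b, and M5 was highest in casq2.

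**Figure D5:**
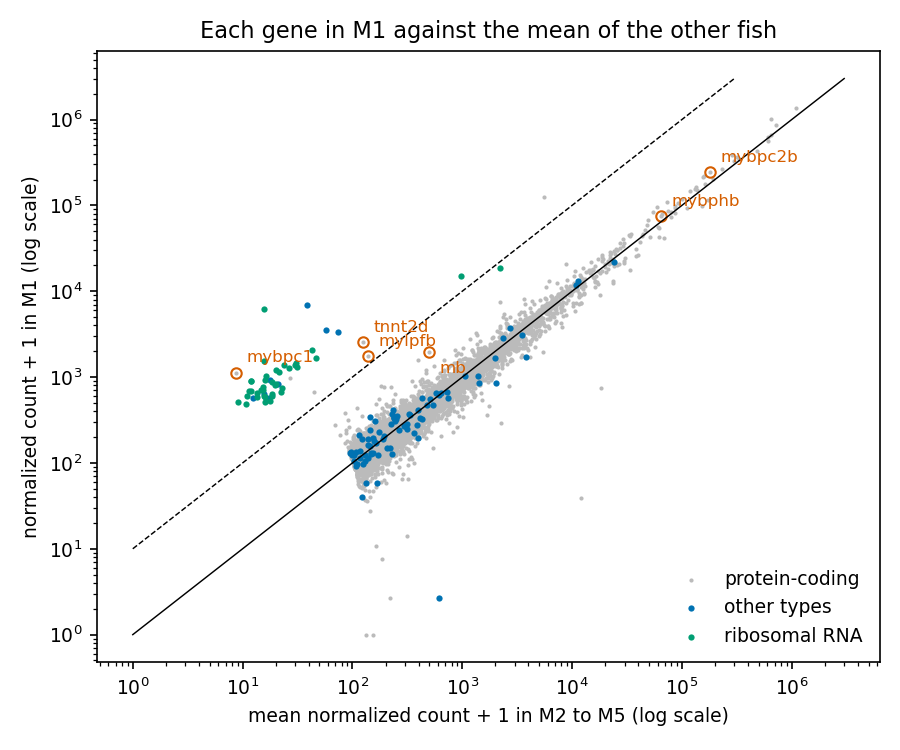
Each of 7209 genes by its mean normalized count + 1 in M2 to M5 (x axis, log scale) and its normalized count + 1 in M1 (y axis, log scale), coloured by annotated type, with lines at equal values (solid) and at 10-fold (dashed). The dashed line marks 10-fold over the mean of M2 to M5, not over each other fish as in the text. Above it mybpc1 lies among ribosomal RNA genes, and protein-coding genes such as tnnt2d and mylpfb also lie above it. The genes mybpc2b and mybphb lie near the solid line.

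Likeness of pattern was measured as the SD over the 5 fish of the log2 ratio of (normalized count + 1) between a member and another gene, where a small SD means a constant ratio. The 5 genes nearest to rna22869 were acvrl1, at an SD of 0.06, pdcl3 at 0.07, and ahcy, LOC100699009 and chtopa, each at 0.10, while the median over 7208 genes was 0.48. For example, acvrl1, an activin-type receptor of blood vessels, had normalized counts of 357 (M1), 291 (M2), 210 (M3), 361 (M4) and 266 (M5). None of the 5 is on the lists of muscle genes. They are the smallest of 7208 SDs over 5 fish, and a search of that size finds some small SDs by chance. Counting error was not set beside these SDs, so a shared pattern cannot be read from them.

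The 5 genes nearest to rna48913 were the pseudogene LOC112845862, at an SD of 0.90, and the ribosomal RNA genes LOC112845921, LOC112845906, LOC112845879 and LOC112845934, at 0.90, 0.92, 0.93 and 0.96. Among protein-coding genes the nearest were LOC100703747 at 1.13, tnnt2d at 1.59, mylpfb at 1.64, LOC100694855 at 1.74 and LOC100701798 at 1.92, and the median was 3.28. Every one of these was highest in M1. LOC100701798 had 124882 normalized counts in M1, 19614 in M4 and between 388 and 1536 in the other fish. The SD of the 5 values is set largely by M1, so a small SD here says mainly that a gene was high in M1.

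The fast-fibre list gives the surroundings of mybpc2b. Of 10 fast-fibre symbols, 6 matched 8 genes. M3, the low fish of mybpc2b, was the lowest in 3 of the 8, mylpfa, myl1 and actn3b. The normalized counts of mylpfa were 574439 in M3 and 746056 to 852779 in the others, and those of actn3b, a Z-disc alpha-actinin of fast fibres, were 116846 in M3 and 117305 to 170184 in the others. By contrast atp2a1l was lowest in M4 and casq1a was lowest in M5, so the fast genes did not vary as a block. M1 was the highest fish in 5 of the 8, a count that was not set beside the share of all genes. Among these, atp2a1, listed beside atp2a1l, had 300 normalized counts in M1 against 11.8 to 53.2.

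Among genes of the thick filament, the M-band and their assembly, 11 of 14 symbols matched 16 genes, all with counts. M1 was the highest fish in 10 and M5 the lowest in 8. The share of all genes highest in M1 or lowest in M5 was not computed, so these counts describe the list only. The titin genes ttn.1 and ttn.2, whose product carries the MyBP-C binding sites, had 215191 and 220026 normalized counts in M1 and 119807 and 128629 in M5. Per kilobase their means were 1940 and 1960, against 54134 for rna22869. The M-band genes myom2a and myom2b had 43754 and 46097 in M1 and 25155 and 27566 in M5. The myosin chaperone gene unc45b had the widest spread among the genes of the list with a mean of at least 100, from 360 in M5 to 5002 in M4, and smyd1b, whose product assists myosin assembly, was also highest in M4, at 3922 against 895 to 1683.

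Among regulators of fibre type, 8 of 9 symbols matched 9 genes. The slow-fibre regulators of embryonic fish muscle were low in all libraries. Their normalized counts were 28.0 to 45.9 for prdm1a and 0 to 3.99 for prox1a. M1 was the lowest fish in prdm1a, but this gene had 217 counts over all fish and counting error was not set beside the order. The gene sox6, a repressor of slow-fibre genes in zebrafish, had 850 (M1), 895 (M2), 902 (M3), 948 (M4) and 548 (M5). M1 was the highest fish in none of the 9, a count that was not set beside the share of all genes.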

How the data were processed

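The data are RNA-Seq libraries of the fast muscle of 5 fish in 1 condition, and no groups were compared. The authors trimmed reads with BBDuk, aligned them with HISAT2 2.1.0 and ran featureCounts, and the deposited values are raw fragment counts per feature (0 columns of values were not used). Only primary alignments were counted, a fragment could match several transcripts, and the strand setting of the counting is not given in the sources used here. Normalization used median-of-ratios size factors (DESeq2 1.42.0, R 4.3.3). Features were placed on genes by coordinates (79924 of 80416) with the RefSeq gene table of O_niloticus_UMD_NMBU. Normalized counts take a pseudocount of 1 where they are logged, except in the member ratio.

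Named genes are the members, their family, genes of fixed lists and the 5 nearest by likeness. The members and lists were chosen with earlier results of these data known, and other genes after their values were seen. Intervals are 95% and cover counting error only, since PCR reads without molecular identifiers are not independent molecules. A count of 0 allows 3 counts (one-sided limit). Alternatives were edgeR 4.0.16 TMM factors, library totals, size factors from transcripts that reached 10 counts in each library, TPM, regularized log values, equal depth, a pseudocount, another isoform and leaving out each fish. Calculations were tested on simulated data. No sequence of these genes is shown here.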

Additional observations from a re-analysis of the deposited data

Results flagged for a closer look

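Single fish far from the other 4 were sought with Dixon's ratio, the gap to the nearest fish over the whole range, against its 95% critical value of 0.71 for 5 values. It was applied on the log2 scale to 57 sets of values: the other genes of the family and the genes of all lists, where they had at least 10 counts over the fish, and the 4 other fast-to-slow pairs. The members and their ratio were left out, since they had been chosen by these values. Of the 57 sets, 5 were past the critical value, and chance passes about 1 in 20 sets, or 2.85. That rate holds for normal values. Some of the sets rest on few counts and the pairs reuse genes of the lists, so the 5 cannot be read as an excess.

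M4 was far below the other fish in the fast-to-slow ratio of the calcium pump pair, at 0.821, and far above them in atp2a2b, at 0.784, with 132 normalized counts against 66.1 to 76.7. M3 was far below in obscna, a giant sarcomere protein gene, at 0.762, with 71.5 normalized counts against 323 to 515. M1 was far above in its paralog obscnb, at 0.772, with 8685 against 6226 to 6717. M5 was far below in sox6, at 0.799, with 548 against 850 to 948.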

How the results depend on the processing

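No paired analysis was possible because there is a single condition. Of 72 values under an alternative, 67 stayed within the SD between fish, or within 1.5 times for an SD, and 5 moved. Leaving out a single fish cannot shift a mean by more than the SD between fish, so those means could not be counted as moved. Division by length cannot change the SD of the log2 ratio either. The count of 67 is therefore no measure of stability. With regularized log values, which are shrunk towards their mean, the SD of the log2 ratio of MyBP-C was 1.69 in place of 3.12. When single fish were left out, that SD ranged from 0.57 without M1 to 3.56, and the mean log2 ratio from 12.72 to 14.63. The mean normalized count ranged from 179822 to 208100 for rna22869, from 179819 to 208097 for rna22870, and from 7.65 without M1 to 288 for rna48913. The SD of the log2 count moved from 0.37 to 0.25 without M3 for rna22869, likewise for rna22870, and from 3.24 to 0.63 without M1 for rna48913. Division by length (TPM) gave a mean log2 ratio of 13.62, equal depth 13.15 and a pseudocount of 1 13.08. The third isoform, rna22868, added after the data were seen, gave 13.25. The other scalings (TMM, library totals, a stricter count minimum) gave means of rna22869 between 192113 and 193273. The percentile of the SD of rna48913 could not be computed at a minimum mean of 1000. Between 4 and 15 counts of mybpc1 in M2 to M5 limit the ratio in these fish.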
